A study of Mus musculus with 22 samples.

Results

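The regions described here lay with their centre between 250 bp and 1 kb of an annotated transcription start site (TSS), on either side, in 4 lists of regions with differing trimethylation of histone H3 lysine 4 (H3K4me3) in mouse synovial fibroblasts. They were the regions that the deposited annotation calls Promoter1k, and there were 2948 of them among 26201 listed regions. A region whose centre lies inside the transcribed side of the TSS is called downstream, and one whose centre lies before the TSS is called upstream. The list for 3 weeks held 954 of these regions among 13603, the list for 8 weeks 490 among 2923, the list for 11 weeks 672 among 6593 and the list for added TNF 832 among 3082. Downstream regions were the more numerous in each list, with 645 against 309 at 3 weeks, 322 against 168 at 8 weeks, 474 against 198 at 11 weeks and 517 against 315 with TNF.

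H3K4me3 was measured by chromatin immunoprecipitation and sequencing in cultured fibroblasts of the joint lining, at passages 4 to 5, from mice of the strain CBA x C57BL/6J. The Tg197 strain has a transgene for human TNF and becomes arthritic. Its cells and wild-type (WT) cells were each taken from animals aged 3, 8 and 11 weeks, and a further set of 8 week WT cells received TNF. Each of these 7 groups had 3 libraries, and 1 input library came from cells of mixed genotype. The sources used here give neither the dose and duration of TNF, nor the sequence that drives the transgene, nor whether each library of a group had its own mouse. Every p-value below therefore measures the spread between these libraries only.

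H3K4me3 is placed on nucleosomes around the start of active genes, and its level is usually highest on the first nucleosomes inside the transcribed side, with a gap at the TSS itself and a weaker shoulder before it. At divergent promoters, where a second transcript starts in the other direction, the upstream shoulder can be strong as well. TNF acts on fibroblasts largely through the transcription factor NF-kB, which switches on genes for chemokines, adhesion molecules and its own inhibitors.

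The promoters of 4 genes on which the results turn are shown first. Tnip1, Nfkbie and Icam1 stand for NF-kB targets with a higher region downstream of the TSS, and Zdhhc12 for a gene whose upstream region was listed with a higher mean in all 4 comparisons. The sequences are from RefSeq on the build GRCm38.p6, each running 5′ to 3′ in the direction of the gene from 250 bp before to 50 bp after the start. They were matched by gene symbol and not by position, because the regions are on the build mm9. Capitals mark matches to the NF-kB consensus, searched on both strands.
Tnip1: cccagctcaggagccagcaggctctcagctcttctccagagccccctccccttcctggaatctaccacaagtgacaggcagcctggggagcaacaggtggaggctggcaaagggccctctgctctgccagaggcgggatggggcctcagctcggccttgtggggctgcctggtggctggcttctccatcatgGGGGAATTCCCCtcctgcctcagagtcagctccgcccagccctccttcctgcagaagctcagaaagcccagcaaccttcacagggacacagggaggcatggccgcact
Nfkbie: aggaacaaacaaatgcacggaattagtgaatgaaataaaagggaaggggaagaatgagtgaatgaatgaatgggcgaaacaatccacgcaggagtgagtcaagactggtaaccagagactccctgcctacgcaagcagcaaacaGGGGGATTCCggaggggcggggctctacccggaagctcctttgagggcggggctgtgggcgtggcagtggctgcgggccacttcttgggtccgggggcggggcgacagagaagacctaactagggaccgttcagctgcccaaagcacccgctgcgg
Icam1: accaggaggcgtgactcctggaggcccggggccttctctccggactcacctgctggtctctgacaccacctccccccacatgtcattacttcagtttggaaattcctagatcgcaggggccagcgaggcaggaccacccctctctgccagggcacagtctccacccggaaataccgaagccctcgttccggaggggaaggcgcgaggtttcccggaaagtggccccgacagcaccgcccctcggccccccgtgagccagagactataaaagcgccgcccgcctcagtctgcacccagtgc
Zdhhc12: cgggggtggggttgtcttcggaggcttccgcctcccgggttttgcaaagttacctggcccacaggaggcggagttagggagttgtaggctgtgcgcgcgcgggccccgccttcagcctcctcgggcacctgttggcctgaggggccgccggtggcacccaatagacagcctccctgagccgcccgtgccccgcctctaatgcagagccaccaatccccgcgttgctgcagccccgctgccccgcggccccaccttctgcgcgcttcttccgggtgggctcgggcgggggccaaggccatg

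In this order the promoters are chr11:54962891-54963190 on the minus strand, chr17:45555450-45555749 on the plus strand, chr9:21015690-21015989 on the plus strand and chr2:30093586-30093885 on the minus strand. The Tnip1 promoter held 4 overlapping matches to the NF-kB consensus on both strands in 1 stretch, the first of them starting 58 bp before the TSS. Nfkbie had 1 match, starting 106 bp before the TSS, and no match was found in these windows of Icam1 and Zdhhc12. The search took only exact matches to GGGRNWYYCC (R is A or G, W is A or T, Y is C or T, N is any letter). Variants of it were not marked, such as the stretch tggaaattcc of Icam1, which differs from it only in the first letter. A window without a match can therefore still hold an NF-kB site. Of 32851 promoters of this length in the same table, 4.51% held the consensus on either strand. The window of Icam1 held the TATA box letters TATAAA, which 13.62% of the promoters did, but they started 14 bp after the annotated TSS. That of Zdhhc12 had a GC content of 70.7% and 26 CpG dinucleotides against a median of 52.67% and 7 over all promoters. These matches are descriptions of the letters and not of binding. A comparison of sequence between the sides was void, because as few as 65.5% of the genes of a set (the lower downstream genes at 3 weeks) had a promoter in the table.

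The deposited lists contained only regions whose best window reached a p-value of 0.0001 or less by the authors' test, and a region without a difference could not appear. The share of all listed regions that passed the authors' adjusted p of 0.05 was correspondingly 99.2%, 97.4%, 96.9% and 96.8% at 3 weeks, 8 weeks, with TNF and at 11 weeks. Reads inside the listed regions came to between 321448 and 2780941 per library. The WT libraries of 8 weeks serve as controls for both the Tg197 comparison at that age and the TNF comparison, which are therefore not independent. Among WT libraries of 8 weeks, library c stood nearest to the treated libraries, and the limma calls that rest on it are given with and without it. The authors' own test, which gives the shares of higher and lower regions, could not be repeated without it. Of 14 synovial fibroblast markers, 4 had a region of this class in any list (Pdpn, Col6a1, Htra4 and Cd248), as had 2 of 8 endothelial markers (Flt1 and Tek), 1 of 10 cartilage, bone and fat markers (Comp) and none of 7 muscle and 9 nerve sheath and epithelial markers. A list of differences does not show which markers are at 0, so the cell type could not be checked further.

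Downstream and upstream regions differed in the direction of change. In the text, higher and lower mean past the authors' adjusted p of 0.05, with the mean of normalized reads above or below the control. At 3 weeks 517 of 645 downstream regions were higher in Tg197 cells and 110 lower, whereas 92 of 309 upstream regions were higher and 212 lower. Over all listed regions of 3 weeks 9.71% were higher and 89.5% lower. Among called regions the higher share was thus 82.5% downstream and 30.3% upstream.

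The same order held in the other lists. At 8 weeks the higher share of called regions was 70.8% downstream (213 higher, 88 lower) and 18.1% upstream (30 higher, 136 lower), with 20.2% of all listed regions higher and 77.2% lower. At 11 weeks it was 66.4% downstream (285 and 144) and 37.5% upstream (72 and 120), with 29.8% of all listed regions higher and 67.0% lower. With TNF it was 66.6% downstream (325 and 163) and 11.1% upstream (34 and 271), with 24.6% of all listed regions higher and 72.3% lower. Upstream regions in the 3, 8 and 11 week lists thus held a larger share of higher regions than, or one near, the background of their list, and in the TNF list a smaller one. The difference between the sides in these shares was not tested, since regions were listed for their difference in the same libraries.

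**Figure D1:**
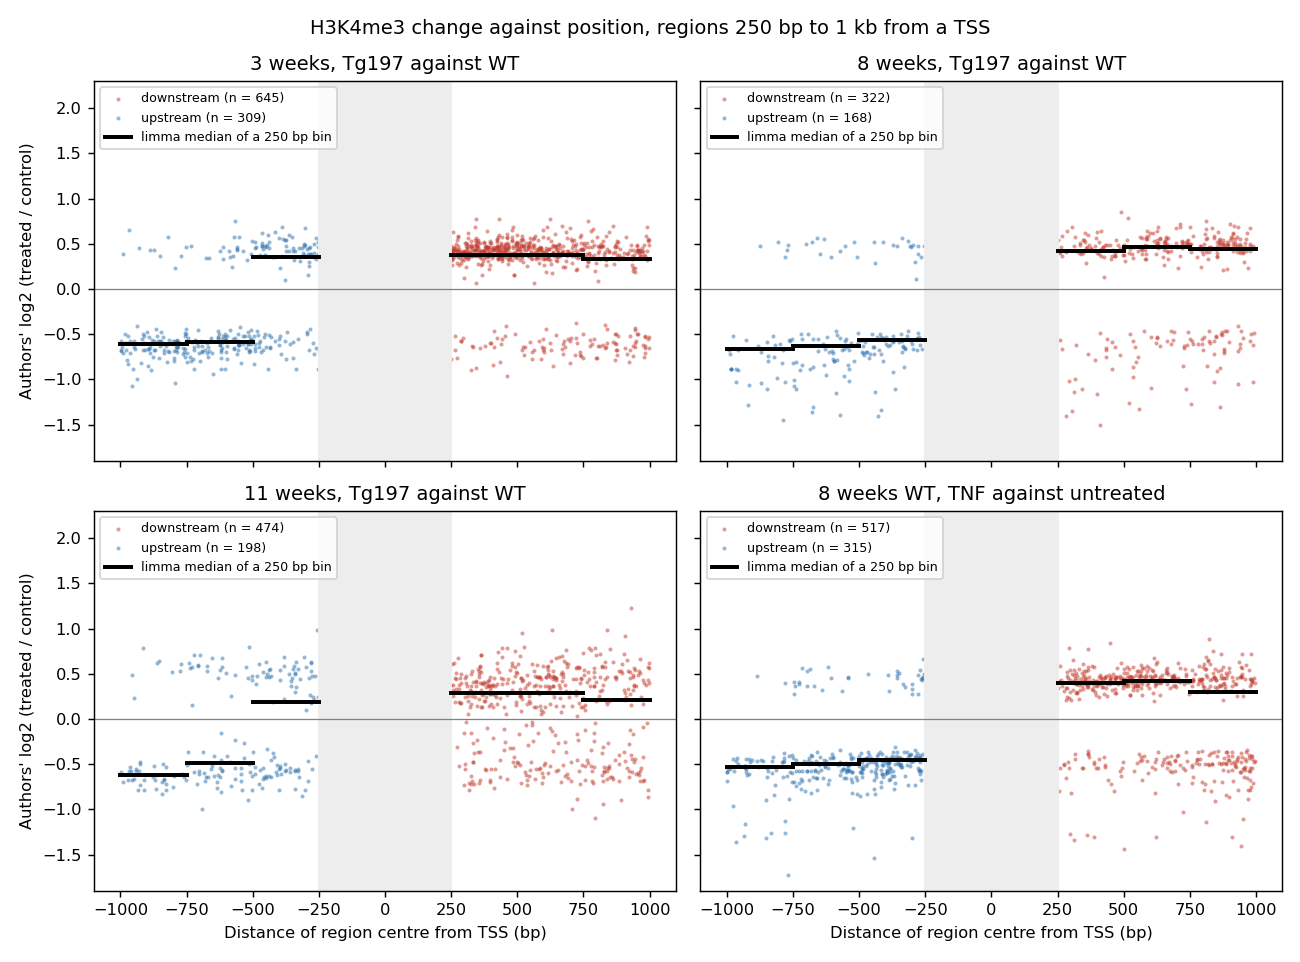
Authors' log2 ratio of Tg197 or TNF-treated over control normalized reads (vertical) against the distance of the region centre from the TSS in bp (horizontal) for every region of this class in each of the 4 comparisons. Red points are downstream and blue points upstream regions, black lines are medians of the limma log2 change in bins of 250 bp, and the grey band is the part within 250 bp of the TSS, which belongs to another class. Points form a band above 0 and a band below 0 because regions near 0 were not listed, and the lower band is denser on the upstream side.

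On the log2 scale of normalized reads plus 0.5, the median change at 3 weeks was 0.37 downstream and −0.56 upstream, a difference of 0.93. The corresponding medians were 0.44 and −0.60 at 8 weeks (difference 1.04), 0.28 and −0.50 at 11 weeks (0.78), and 0.39 and −0.48 with TNF (0.88). The median over all listed regions lay between −0.58 and −0.86 in the 4 lists, near that of the upstream regions. A library scaling moves all regions of a library by 1 factor, so it leaves the difference between the sides as it is and moves the medians of both: after dividing each library by its own median of all listed regions the upstream median of 3 weeks was 0.10, and after dividing by the median of the TSS-near regions (1 kb or closer) the downstream median was 0.04. Which side moved in absolute terms therefore depends on the scaling.

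The test on the separate libraries, with limma and Benjamini-Hochberg adjustment over all listed regions of a comparison, gave the same contrast where it made calls. It is no independent support, because regions were listed for a difference in these same libraries and limma saw only listed regions. The limma adjusted p-values here and below come after that selection, and describe how far the libraries of listed regions were apart. At 3 weeks 216 downstream regions rose and 104 fell, and 54 upstream regions rose and 213 fell, while 4.68% of all listed regions rose and 88.9% fell. At 11 weeks 266 downstream regions rose and 137 fell against 70 and 120 upstream, with 29.6% of all listed regions rising and 67.7% falling. With TNF 209 downstream regions rose and 79 fell against 21 and 100 upstream, with 16.5% rising and 42.6% falling over the list.

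At 8 weeks no region of this class passed limma's adjusted p of 0.05, nor did any other listed region (0.00% in each direction), although 250 of the 490 regions had an unadjusted p under 0.05. limma's voom on recovered whole reads also called 0. Without WT library c the same limma test called 354 regions, of which 145 rose and 209 fell. It called 0 when any other library of that comparison was left out. The calls with TNF rested on single libraries as well: there were 409 with all libraries, 717 without WT library c, and 0 when WT library a or b or TNF library b or c was left out. At 3 weeks 587 regions were called, 897 without Tg197 library c and 0 without WT library c. At 11 weeks the number stayed between 543 and 568.

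Counting regions whose 3 treated libraries all lay above, or all below, the 3 control libraries gave a similar picture, after the same selection. At 3 weeks 298 downstream regions lay above and 104 below, against 71 and 210 upstream, while 6.29% of all listed regions lay above and 86.4% below. At 8 weeks the counts were 183 and 66 downstream and 25 and 90 upstream (16.9% and 46.3% of the list). At 11 weeks they were 276 and 146 against 69 and 122 (28.8% and 67.1%), and with TNF 299 and 130 against 35 and 188 (22.4% and 51.8%).

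The direction of change followed the position of the region in finer steps. At 3 weeks the higher share of called regions was 10.5% for centres 1000 to 750 bp before the TSS, 17.1% for 750 to 500 bp and 61.5% for 500 to 250 bp, and on the other side it was 90.7%, 81.9% and 68.6% going outwards. With TNF the 3 upstream bins held 1.72%, 13.5% and 13.2% and the 3 downstream bins 76.4%, 74.5% and 52.4%. At 11 weeks the steps were 18.2%, 35.4% and 49.4% upstream and 71.9%, 69.3% and 57.1% downstream. At 8 weeks the upstream bins rose from 11.1% to 21.9% towards the TSS, and the downstream bins, at 69.4%, 74% and 69.0%, showed no such gradient. The largest step between neighbouring bins of 3 and 11 weeks thus lay on the upstream side at 3 weeks and across the TSS at 11 weeks.

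Between 1 and 3 kb the sides differed as well, so the contrast was not particular to these distances. Within 250 bp of the TSS it was not seen in each list. There the median log2 change downstream and upstream was 0.39 and 0.40 at 3 weeks, 0.41 and 0.38 at 8 weeks, 0.30 and 0.38 at 11 weeks, and 0.44 and 0.42 with TNF. Regions centred within 250 bp of the TSS were mostly higher on both sides, with 91.9% of called regions downstream and 87.0% upstream at 3 weeks, 69.8% and 54.7% at 8 weeks, 74.1% and 79.6% at 11 weeks, and 83.5% and 67.5% with TNF. Regions centred between 1 and 3 kb from the TSS had fewer higher regions on both sides and a gap between the sides in each list. Their higher share was 17.3% downstream and 2.34% upstream at 3 weeks, 45.4% and 2.02% at 8 weeks, 43.6% and 21.0% at 11 weeks, and 28.8% and 5.59% with TNF. At 3 weeks 18 of 27 upstream regions just inside the inner limit (250 to 300 bp) were higher, as were 20 of 24 just outside it (200 to 250 bp). At the outer limit, 26 of 38 downstream regions of 3 weeks at 950 to 1000 bp were higher and 8 of 18 at 1000 to 1050 bp. The other lists showed no such drop there, with 12 of 20 and 19 of 30 at 8 weeks, 14 of 26 and 13 of 19 at 11 weeks, and 14 of 42 and 13 of 33 with TNF. Differences between classes were not tested.

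Regions were wide compared with their distance from the TSS, with a median length of 1100 bp, so many spanned it. At 3 weeks 56.4% of downstream and 47.2% of upstream regions did. Among regions that did not reach the TSS the higher share was 72.7% downstream and 13.7% upstream at 3 weeks, 70.3% and 14.6% at 8 weeks, 59.1% and 28.3% at 11 weeks, and 58.6% and 7.21% with TNF. The sides therefore differed as much or nearly as much without the spanning regions. The strand of the gene made little difference at 3 weeks, with 82.6% higher downstream for genes on the plus and 82.3% for genes on the minus strand.

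The contrast could be read within single libraries, without a ratio between groups. The normalized reads of all downstream regions of a list were summed for each library and divided by the sum of its upstream regions. At 3 weeks this quotient was 4.13, 4.71 and 3.56 in the Tg197 libraries and 2.96, 3.00 and 2.90 in the WT libraries. At 8 weeks it was 3.48, 2.82 and 2.94 in Tg197 and 1.58, 1.70 and 2.48 in WT, with WT library c highest. The Tg197 libraries lay above the WT libraries at both ages.

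At 11 weeks the quotient was 4.03, 3.96 and 4.28 in Tg197 and 3.33, 3.40 and 3.35 in WT. With TNF it was 2.44, 2.76 and 2.54 in treated libraries and 1.55, 1.67 and 2.06 in untreated ones, again with library c highest. The groups overlapped in none of the 4 lists, and the mean log2 quotient differed by 0.48, 0.70, 0.28 and 0.56 at 3, 8 and 11 weeks and with TNF. No test was made, because the regions entered the sums for differing between these libraries. In 6 of the 7 groups the library with the most reads per normalized unit also had the highest quotient, and the part of depth in the difference was not tested.

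**Figure D2:**
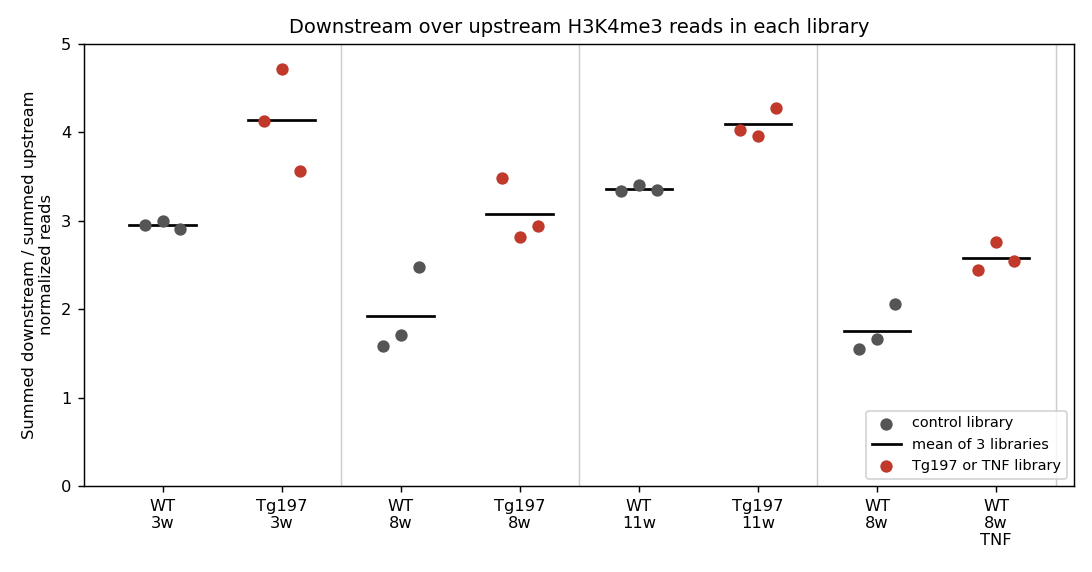
Summed normalized reads of downstream regions divided by those of upstream regions (vertical) for each library, by group (horizontal), with the WT libraries of 8 weeks shown once for each of the 2 lists in which they are controls. Points are libraries and lines are means of 3, and the Tg197 and TNF libraries (red) lie above the control libraries (grey) in each list, with the smallest gap between WT library c of 8 weeks (2.48) and Tg197 (2.82).

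The side of the TSS and the level of H3K4me3 went together, and both went with the direction. Median normalized reads per kb at 3 weeks were 222.0 downstream and 120.1 upstream. They were 242.0 in higher and 109.2 in lower downstream regions, and 196 in higher and 111 in lower upstream regions. At 11 weeks the same medians were 208 and 144 downstream and 144 and 114 upstream. Higher regions thus had the larger median level in each of these sets.

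Among regions of middle level the sides still differed. For 100 to 200 reads per kb the higher share was 64.9% downstream and 23.005% upstream at 3 weeks, 61.9% and 16.8% at 8 weeks, 58.6% and 38.8% at 11 weeks, and 39.4% and 4.87% with TNF. For 200 to 400 reads per kb it was 99.7% and 97.7% at 3 weeks, 96.9% and 72.7% at 8 weeks, 84.0% and 68.4% at 11 weeks, and 96.6% and 60% with TNF. The upstream regions of that higher class numbered 45, 12, 23 and 38. At 3 weeks, then, strongly marked regions were nearly all higher on both sides, and the sides parted among regions of middle level.

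**Figure D3:**
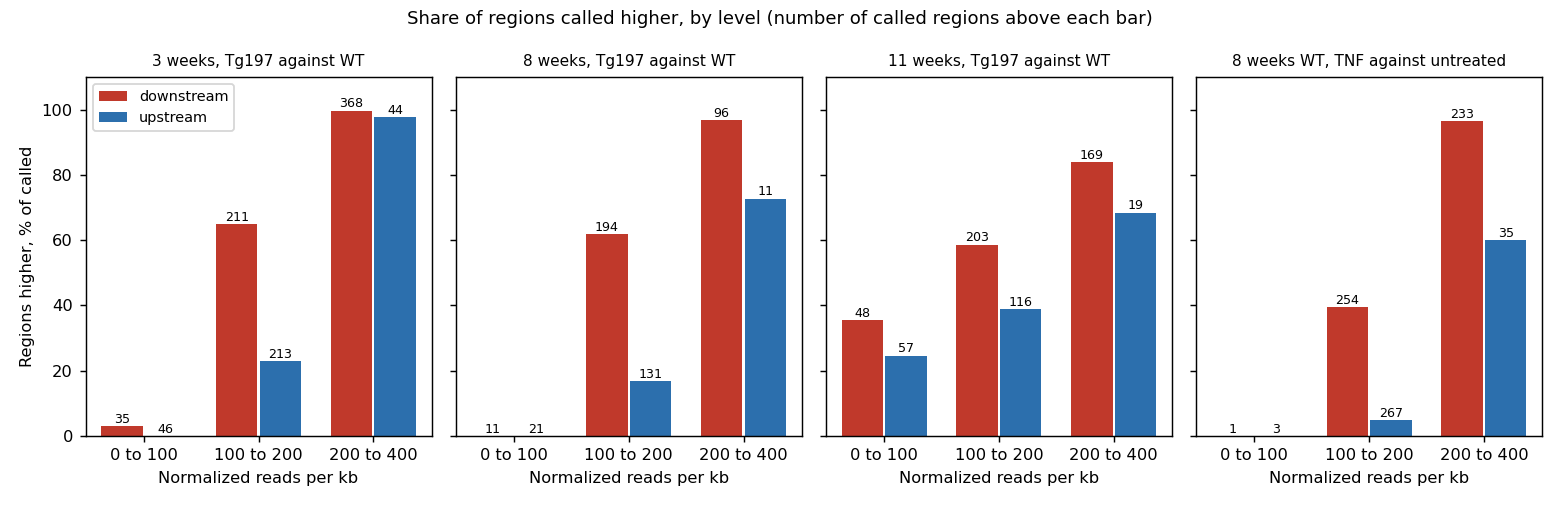
Percentage of called regions that were higher in Tg197 or TNF-treated cells (vertical, bars from 0) by class of mean normalized reads per kb (horizontal) and by side, downstream in red and upstream in blue, in each comparison. The numbers above the bars are called regions, and the few regions over 400 reads per kb are not drawn. In the class of 100 to 200 reads per kb the downstream bar is the taller in each comparison, for example 61.9% against 16.8% at 8 weeks.

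The deposited enrichment over input, a ratio given for each group, did not always point the same way as the normalized reads. All 517 higher downstream and all 92 higher upstream regions of 3 weeks had a higher enrichment in Tg197 cells, and so had 18 of 110 lower downstream and 34 of 212 lower upstream regions. At 11 weeks 4 of 144 lower downstream and 0 of 120 lower upstream regions did. With TNF 151 of 163 lower downstream and 260 of 271 lower upstream regions had a higher enrichment in treated cells, the median enrichment of the lower upstream regions being 4.67 with TNF and 3.17 without. By enrichment, 96.4% of called upstream and 97.5% of called downstream regions were thus higher with TNF, and the contrast of direction between the sides was absent there. The median log2 ratio of enrichment with TNF was still larger downstream (1.40) than upstream (0.60). It was 1.01 downstream and −0.04 upstream at 3 weeks, 0.99 and 0 at 8 weeks, and 0.35 and −0.45 at 11 weeks. At 3 and 8 weeks the upstream median by enrichment was thus at or near 0, where by reads it was −0.56 and −0.60.

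**Figure D4:**
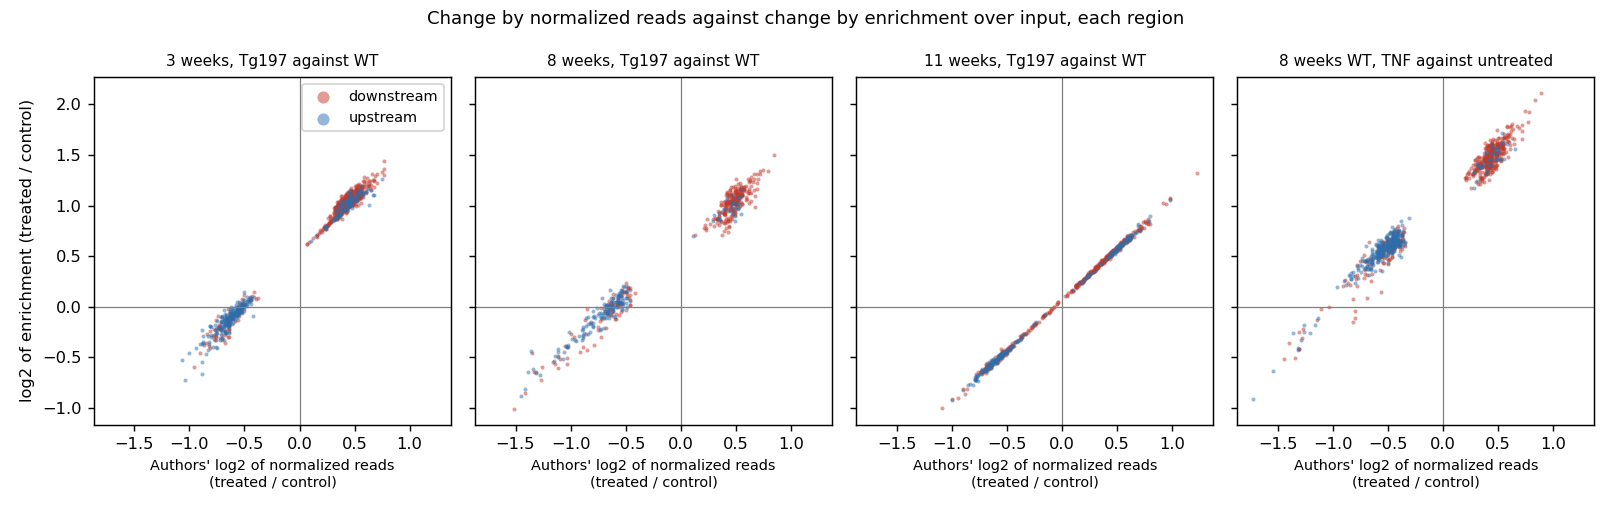
Log2 ratio of the deposited enrichment over input (vertical) against the authors' log2 ratio of normalized reads (horizontal), treated or Tg197 over control, for each region in the 4 comparisons, downstream in red and upstream in blue. Points at 11 weeks lie near the diagonal, whereas with TNF nearly all points lie above 0 on the vertical axis, including 260 of 271 upstream regions that were lower by reads.

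Calls of single named regions depended on how the libraries were scaled. Of 22 named regions that rose at 3 weeks, 21 passed limma's adjusted p of 0.05 with scaling to all listed regions and 0 with scaling by TSS-near regions, where 0 also had an unadjusted p under 0.05. Of 23 that fell at 3 weeks, 0 passed with scaling to all listed regions (0 by unadjusted p, and 11 changed sign) and 23 with scaling by TSS-near regions. At 11 weeks 30 and 18 of 30 rising regions passed limma under these scalings, and 5 and 13 of 13 falling ones. With TNF 15 and 10 of 15 rising and 4 and 11 of 11 falling regions did. Each rise or fall named at 3 weeks below thus holds for the deposited scaling and fails under at least 1 of these 2 scalings.

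WT library c of 8 weeks changed the calls too. Without it limma passed 13 of the 15 named rising regions with TNF, the exceptions being Irf1 and Ifi204, and all 11 falling ones. At 8 weeks, where none of 31 named regions passed with all libraries, 8 rose and 16 fell without it. Library c was singled out for lying nearest to the treated libraries. Calls without it, here and for single genes below, thus rest on a choice made from the same values and are not taken as support.

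Genes with a listed region on both sides of 1 start or of several starts allow the sides to be set against each other within a gene. There were 31 such cases in the 4 lists (11, 2, 7 and 11 at 3, 8 and 11 weeks and with TNF). In 16 of them the means differed in opposite directions, and in 15 of these 16 the downstream region was the higher one. Over all called regions the higher share was 82.5%, 70.8%, 66.4% and 66.6% downstream. Upstream it was 30.3%, 18.1%, 37.5% and 11.1%. Opposite pairs would thus mostly have the higher region downstream even if the regions of a gene were unrelated. Whether 15 of 16 exceeds that was not tested. The exception was Zfp768, a zinc finger gene, at 3 weeks. With scaling to all listed regions the downstream change was above 0 and the upstream one below 0 in 12 of the 31, and by TSS-near regions in 14.

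Stxbp3a, which encodes a protein of vesicle docking, had downstream normalized reads of 378, 384 and 308 in Tg197 and 285, 295 and 291 in WT libraries of 3 weeks (chr3:108642001-108643300 on mm9). Its upstream region (chr3:108643401-108644900) had 117, 140 and 95.1 in Tg197 against 210.0, 207 and 197 in WT. The groups did not overlap on either side, with a limma log2 change of −0.82 ± 0.18 (SE, adjusted p = 0.0143) upstream and 0.29 ± 0.17 (adjusted p = 0.1119) downstream. With scaling to all listed regions the upstream value of Stxbp3a was −0.15 (limma adjusted p = 0.9541), and by TSS-near regions its downstream value was −0.04, so its opposite directions depend on the scaling. Papd5, a poly(A) polymerase gene, had 313, 264 and 321 in Tg197 and 231, 229 and 237 in WT downstream at 11 weeks (chr8:90722801-90724200). Upstream (chr8:90721901-90722900) it had 70.7, 93.2 and 77.0 against 161, 106 and 129. The Papd5 groups were apart on both sides, and limma passed both, at 0.36 ± 0.10 (SE, adjusted p = 0.0056) and −0.71 ± 0.19 (adjusted p = 0.0047).

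Parp10, which encodes a mono-ADP-ribosyltransferase, and Aven, an inhibitor of apoptosis, had the same pattern at 11 weeks. Parp10 rose downstream by 0.50 ± 0.13 (SE, limma adjusted p = 0.0046) and fell by 0.61 ± 0.19 upstream (adjusted p = 0.0083). Aven rose downstream by 0.40 ± 0.14 (SE, limma adjusted p = 0.0133) and fell by 0.65 ± 0.17 upstream (adjusted p = 0.0049). With scaling to all listed regions the upstream calls of Papd5, Parp10 and Aven were lost (limma adjusted p = 0.0831, 0.2031 and 0.1236), and by TSS-near regions the downstream calls of Papd5 and Aven (0.051 and 0.1004). With TNF, Tab1, which encodes an adaptor of the kinase TAK1 in TNF signalling, had 235.2, 239 and 235.0 treated against 172, 195 and 196 untreated reads downstream. Upstream, Tab1 had 105, 96.3 and 113 against 197, 171 and 127. Both groups of values were apart, and neither passed limma (adjusted p = 0.0553 and 0.0537).

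Tnip1 was the gene with a downstream region in all 3 age lists that was higher each time, and it was in the TNF list too. It encodes ABIN1, a ubiquitin-binding protein that restrains NF-kB signalling, and its promoter with the NF-kB matches is shown above. At 3 weeks the region chr11:54773901-54777000 had 522, 518 and 634 normalized reads in Tg197 and 321, 324 and 398 in WT. At 8 weeks a narrower region, chr11:54775401-54776500, had 161, 156 and 270.1 in Tg197 and 123, 123 and 80.3 in WT. The Tg197 libraries were the higher ones in both lists, without overlap.

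At 11 weeks Tnip1 (chr11:54774001-54777200) had 674, 498 and 583 reads in Tg197 and 349, 270.4 and 267 in WT. With TNF (chr11:54774201-54777000) it had 566, 557 and 555 treated and 393, 371 and 234 untreated. Groups did not overlap here either. The folds were 1.60, 1.80 and 1.98 in order of age, and 1.68 after TNF. limma gave a log2 change of 0.68 ± 0.18 (SE, adjusted p = 0.0143), 0.83 ± 0.30 (adjusted p = 0.0725), 0.98 ± 0.13 (adjusted p = 0.0031) and 0.78 ± 0.19 (adjusted p = 0.046). Without WT library c Tnip1 passed at 8 weeks (0.62, limma adjusted p = 0.0409) and with TNF (0.55, adjusted p = 0.014). The change stayed above 0 under both rescalings in each list, at 0.35 to 1.54, but at 3 weeks limma's adjusted p was 0.1135 when libraries were scaled by their TSS-near regions.

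Zdhhc12, which encodes an enzyme that attaches palmitate to proteins, was the upstream gene present in all 3 age lists. Its region at 3 weeks (chr2:29949101-29950100, centre 446.5 bp before the TSS) had 267, 263 and 249.9 normalized reads in Tg197 and 182, 222 and 152 in WT. At 8 weeks it had 299, 267 and 239 against 202, 199.5 and 212, and at 11 weeks 315, 242 and 289.7 against 205, 179.7 and 212. The Tg197 libraries lay above the WT libraries at each age, opposite to most upstream regions.

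With TNF Zdhhc12 had 239, 230.3 and 248 treated against 209, 166 and 181 untreated reads, again without overlap, but the authors' adjusted p was 0.1223 and limma's 0.0526. limma gave a log2 change of 0.50 ± 0.18 (SE, adjusted p = 0.0204) at 3 weeks, 0.39 ± 0.19 (adjusted p = 0.0938) at 8 weeks and 0.50 ± 0.12 (adjusted p = 0.0044) at 11 weeks. Under scaling by TSS-near regions the changes stayed above 0, between 0.17 and 0.35, and only that of 11 weeks passed (limma adjusted p = 0.013).

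**Figure D5:**
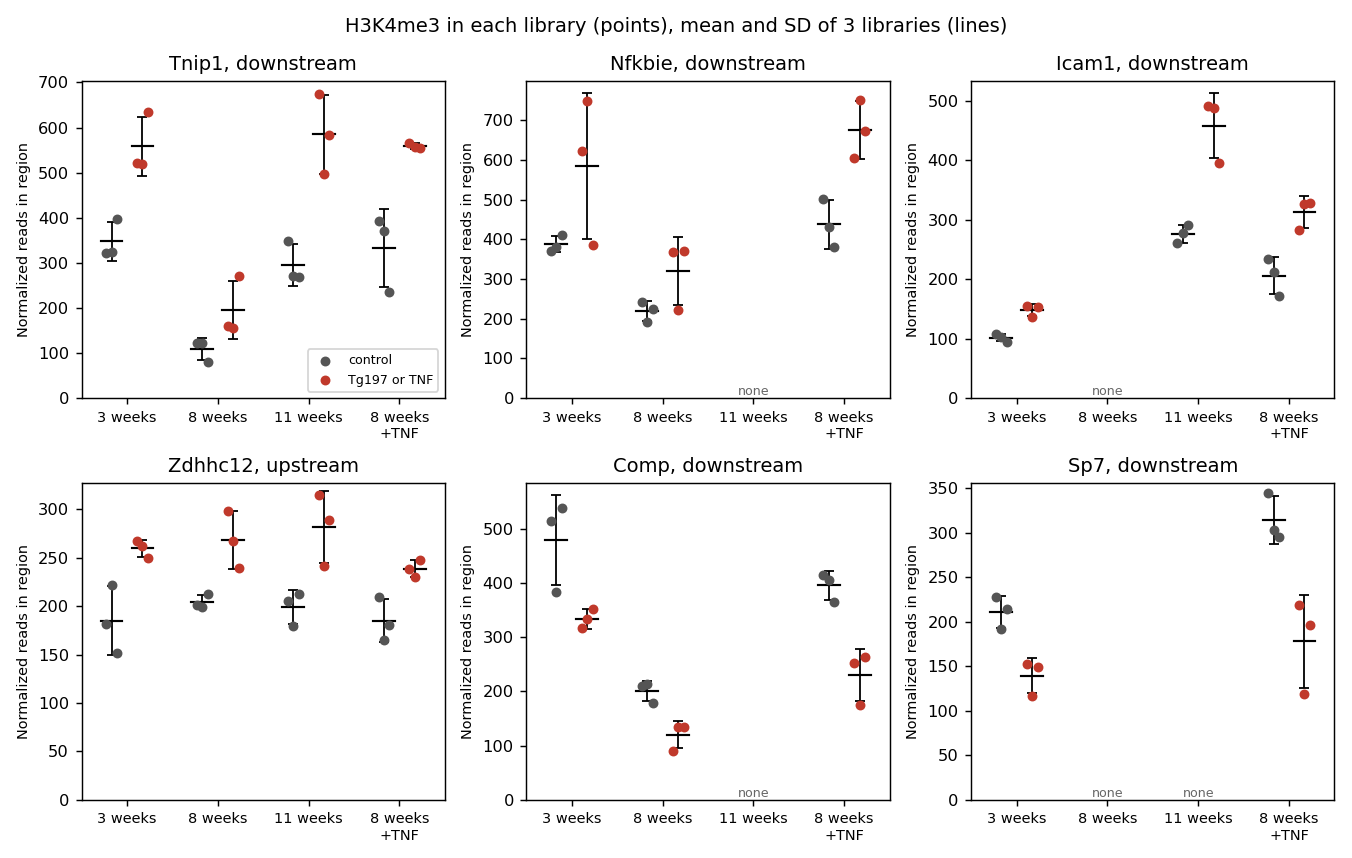
Normalized reads in the listed region of 6 genes (vertical, from 0) for each library in each comparison (horizontal), control libraries in grey and Tg197 or TNF libraries in red, with the mean and SD of 3 libraries. Region boundaries differ between lists, so levels are compared within a list only, and "none" marks a list without a region of that class on that side. Tnip1 and Zdhhc12 are higher in the red libraries in all 4 lists, whereas Comp and Sp7 are lower in the red libraries where listed.

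Of the 30 NF-kB targets and regulators, 12 genes had a region of this class in some list. All 17 downstream regions of these genes had a higher mean in Tg197 or TNF-treated cells and passed the authors' threshold, and 12 of them passed limma. They were Icam1, Nfkbie, Sod2, Tnfrsf1b and Tnip1 at 3 weeks, Nfkbie and Tnip1 at 8 weeks, Icam1, Ikbke, Tank, Tnfaip2 and Tnip1 at 11 weeks, and Birc3, Icam1, Nfkbie, Tank and Tnip1 with TNF. limma passed 3 of 5, 0 of 2, 5 of 5 and 4 of 5 of them. Over all downstream regions the authors' higher share of called regions was 82.5%, 70.8%, 66.4% and 66.6%, and limma passed as rising 216 of 645, 0 of 322, 266 of 474 and 209 of 517. Their median log2 change was 0.54, 0.67, 0.72 and 0.63, beside 0.37, 0.44, 0.28 and 0.39 over all downstream regions. All 17 stayed above 0 under both rescalings (0.07 to 1.54), but with scaling by TSS-near regions none of the 3 calls of 3 weeks passed limma (adjusted p = 0.1135 for Tnip1, 0.5124 for Icam1 and 0.3091 for Nfkbie).

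Icam1, the adhesion molecule that holds leukocytes, had 155, 136 and 153 normalized reads in Tg197 and 107, 103 and 94.9 in WT at 3 weeks (chr9:20820901-20821900). At 11 weeks a wider region (chr9:20819901-20822400) had 492, 488 and 395 against 260.5, 278 and 291. With TNF the region (chr9:20820001-20821500) had 282, 327 and 329 against 233, 211 and 172. The groups were apart in all 3 lists, with limma log2 changes of 0.54 ± 0.17 (SE, adjusted p = 0.0156), 0.72 ± 0.10 (adjusted p = 0.004) and 0.61 ± 0.15 (adjusted p = 0.046).

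Nfkbie, which encodes the inhibitor IkB-epsilon, was less even. With TNF it had 604, 751 and 674 normalized reads against 503, 430.3 and 380 (chr17:45692401-45694800), a log2 change of 0.63 ± 0.15 (SE, limma adjusted p = 0.046). At 3 weeks Tg197 library c, at 386, lay within the WT values of 372, 381 and 412, while the other 2 were at 622 and 749. At 8 weeks Tg197 library b, at 221, also lay within the WT range of 192 to 243.

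Tank, an adaptor that regulates TRAF signalling, had 284, 350.4 and 358 reads in Tg197 and 216, 151 and 158 in WT at 11 weeks (chr2:61416201-61418900), a fold of 1.89 (limma adjusted p = 0.0043). With TNF its listed region was another one (chr2:61431401-61432400), where treated and untreated libraries overlapped (limma adjusted p = 0.0767). Birc3, which encodes the ubiquitin ligase cIAP2, had 469, 475 and 510.1 treated against 360.4, 305 and 269 untreated reads (limma log2 0.65 ± 0.14, SE, adjusted p = 0.046). Ikbke, a kinase of the same family as the IkB kinases, and Tnfaip2 rose at 11 weeks by 0.53 ± 0.16 and 0.34 ± 0.10 (SE, limma adjusted p = 0.0066 and 0.0062). By TSS-near regions Tnfaip2 did not pass (limma adjusted p = 0.0757).

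The 3 upstream regions of this list were those of Tnip2 at 3 weeks and of Nfkb2 and Rela with TNF. Tnip2 rose by 0.49 ± 0.17 (SE, limma adjusted p = 0.0195), and by TSS-near regions its value was 0.16 (adjusted p = 0.5885). Nfkb2, which encodes the p100 subunit, had 673, 771 and 753 treated against 551, 487 and 531 untreated reads and rose by 0.48 ± 0.13 (limma adjusted p = 0.046). Rela, which encodes the p65 subunit, had 161, 154 and 140.3 against 245, 195 and 201 and fell by 0.49 ± 0.17 (limma adjusted p = 0.0463). With each library scaled to all listed regions the Rela value was 0.02, so its direction depends on the scaling.

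The interferon response list of 32 genes had 7 downstream regions, all with a higher mean and above 0 under both rescalings, in a side where 66.4% to 82.5% of called regions were higher. Xaf1 rose at 3 weeks with 221, 293 and 333 reads in Tg197 against 171, 161 and 187 in WT (limma log2 0.69 ± 0.19, SE, adjusted p = 0.0143), but with scaling by TSS-near regions Xaf1 was 0.35 (limma adjusted p = 0.1664). Bst2, which tethers virus particles to the cell surface, rose at 11 weeks by 0.55 ± 0.12 (limma adjusted p = 0.0043), and Mx2 and Oasl2 rose with it, by 0.72 ± 0.18 and 0.47 ± 0.11 (limma adjusted p = 0.0045 and 0.0044). Irf1, a transcription factor, rose with TNF by 0.55 ± 0.18 (limma adjusted p = 0.046, 0.0507 without WT library c and 0.0501 by TSS-near regions). At 8 weeks Ddx60 had 160, 163 and 183 reads in Tg197 against 126, 72.3 and 94.0 in WT and was higher by the authors' test, and limma gave an adjusted p of 0.0725. The upstream region of Irf7 was lower with TNF and had overlapping libraries (limma adjusted p = 0.0621). A rise of all downstream regions was not particular to the NF-kB and interferon lists. In the cytoskeleton and adhesion list all 9 were above 0 as deposited and with scaling to all listed regions, and 6 by TSS-near regions. Of its 6 upstream regions 4 were below 0 as deposited. All 5 downstream regions of the antigen presentation list were above 0 as deposited.

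Other immune genes were few in this class. Of the regions of the chemokine and cytokine list, 2 were higher and 4 lower. Lif fell downstream at 3 weeks (limma log2 −0.63 ± 0.22, SE, adjusted p = 0.0181), but was at 0.04 with scaling to all listed regions. Il34 was lower downstream at 8 weeks by the authors' test (limma log2 −1.08, adjusted p = 0.0725). Ccl2 and Ccl7, chemokines that attract monocytes, rose downstream at 11 weeks. Ccl2 had 415, 349 and 365 reads in Tg197 and 217, 199.7 and 243 in WT (chr11:81848401-81851300), a log2 change of 0.78 ± 0.11 (SE, limma adjusted p = 0.0034), and Ccl7 rose by 0.43 ± 0.13 (limma adjusted p = 0.0064). Csf1, the growth factor of macrophages, had an upstream region that was lower at 8 weeks and fell with TNF, with 181, 140 and 181 treated against 285, 250.1 and 264 untreated reads (limma log2 −0.68 ± 0.16, adjusted p = 0.046). Scaled to all listed regions, the Csf1 values were 0.25 at 8 weeks and −0.17 with TNF, so the direction at 8 weeks depends on the scaling. Of the antigen presentation genes, H2-K1 rose downstream at 3 and 11 weeks (limma log2 0.52 ± 0.17 and 0.43 ± 0.13, SE, adjusted p = 0.0166 and 0.008). H2-D1 rose at 3 weeks by 0.56 ± 0.17 (limma adjusted p = 0.015). With scaling by TSS-near regions neither passed at 3 weeks (0.19 and 0.23, limma adjusted p = 0.4187 and 0.4304), nor did H2-K1 at 11 weeks (adjusted p = 0.0527). The 1 upstream region of the antigen presentation list, that of H2-DMa at 8 weeks, was lower by the authors' test (limma log2 −0.99, adjusted p = 0.0725).

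Of 13 regions of the bone, Wnt and BMP list, 10 were lower and 3 higher (Lrp5, Tgfb1 and Dkk2, at 11 weeks). This share of lower regions is near that of all listed regions, of which 89.5%, 77.2%, 67.0% and 72.3% were lower at 3, 8 and 11 weeks and with TNF. With scaling to all listed regions 9 of the 13 were above 0, so the direction of this list depends on the scaling. Sp7, a transcription factor of osteoblasts, had 153, 117 and 149 reads in Tg197 and 228, 192 and 214 in WT downstream at 3 weeks (limma log2 −0.61 ± 0.18, SE, adjusted p = 0.0144, and 0.06 with scaling to all listed regions). With TNF it had 219, 119 and 196 against 345, 303 and 295 (−0.86 ± 0.22, limma adjusted p = 0.046), and at 11 weeks an upstream region of Sp7 fell by 0.68 ± 0.14 (limma adjusted p = 0.0043). With scaling to all listed regions neither of these 2 passed (limma adjusted p = 0.1954 and 0.0873). The libraries of Sp7 did not overlap in these lists. Its upstream region of 11 weeks (chr15:102195901-102198400 on mm9) and its downstream region of 3 weeks (chr15:102195601-102197000) share bases. They are thus not separate parts of the gene.

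Comp, which encodes a protein of the cartilage matrix and counts here as a marker of cartilage, had downstream regions with fewer reads in 3 lists. At 3 weeks it had 316, 334 and 353 reads in Tg197 against 515, 384 and 538 in WT, at 8 weeks 90.8, 135 and 134 against 211, 214 and 179, and with TNF 253, 175 and 264 against 415, 406 and 366. limma gave −0.50 ± 0.18 (SE, adjusted p = 0.0214), −0.76 ± 0.24 (adjusted p = 0.0725) and −0.80 ± 0.17 (adjusted p = 0.046). Libraries did not overlap, but with scaling to all listed regions the value at 3 weeks was 0.17 and none of the 3 passed. No other of the 10 cartilage, bone and fat markers had a region of this class, and the part of cartilage cells in the values of Comp and Sp7 was not tested.

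Matrix and fibroblast genes moved in both directions. At 3 weeks the upstream regions of Fmod and Col6a1 and the downstream region of Lum, all genes of the collagen matrix, fell by 0.69 ± 0.16, 0.60 ± 0.20 and 0.74 ± 0.18 (SE, limma adjusted p = 0.0143, 0.0164 and 0.0143). Scaled to all listed regions, their values were −0.02, 0.07 and −0.07, and none passed limma (lowest adjusted p = 0.9619). Loxl1, a collagen crosslinking enzyme, rose downstream at 11 weeks by 0.48 ± 0.10 (limma adjusted p = 0.0043). Adamts4, a protease of aggrecan, rose downstream at 3 weeks with 233, 250.5 and 242 reads in Tg197 against 194, 173 and 179 in WT (limma log2 0.41 ± 0.16, SE, adjusted p = 0.0283). Pdpn, which encodes podoplanin, a surface protein of lining fibroblasts, had 398, 496 and 316 against 286, 289.5 and 306 downstream at 3 weeks (limma log2 0.44 ± 0.19, adjusted p = 0.0441). By TSS-near regions Adamts4 was 0.08 and Pdpn 0.10 (limma adjusted p = 0.7601 and 0.6209). Cd248 rose downstream at 11 weeks by 0.31 ± 0.10 (limma adjusted p = 0.0101, and 0.123 by TSS-near regions), and its upstream region was lower with TNF at a limma adjusted p of 0.0569.

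The cell cycle list had 7 genes with a region of this class. At 3 weeks Cdk6 rose downstream by 0.53 ± 0.19 (SE, limma adjusted p = 0.021) and Mcm6, a subunit of the replicative helicase, fell by 0.71 ± 0.25 (limma adjusted p = 0.0185). Cdk6 was 0.19 by TSS-near regions and Mcm6 −0.04 with scaling to all listed regions. The upstream regions of Ccnd1 and Top2a at 8 weeks and of Ccnb1 and Mki67 with TNF were lower by the authors' test and none passed limma. Scaled to all listed regions, Ccnd1, Ccnb1 and Mki67 were at 0.01, 0.06 and 0.07. The 34 homeobox and limb patterning genes gave 6 regions, 3 higher (Emx2, Shox2 and Twist2, at 3 weeks) and 3 lower (Hoxa5, Hoxa13 and Hoxa9, in the other 3 lists).

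The largest changes of the class were found by a rule of size among regions whose libraries did not overlap and whose higher group had a mean of at least 50 normalized reads. At 11 weeks Chl1, a neural adhesion molecule, had 272, 191 and 205 reads in Tg197 against 116, 81.1 and 87.6 in WT downstream (chr6:103460901-103462700), a fold of 2.35 (limma log2 1.23 ± 0.17, SE, adjusted p = 0.0036). Npy1r, a neuropeptide Y receptor, had 332, 220.3 and 241 against 153, 115 and 135, a fold of 1.97 (limma adjusted p = 0.0043). Npy1r was also higher downstream at 3 weeks by the authors' test. On the lower side of the downstream regions were Sigirr, an inhibitor of interleukin receptor signalling, with 55.7, 63.5 and 67.0 against 153, 137 and 106 (limma adjusted p = 0.0043), then Wnt10a and Nr4a1.

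Upstream at 11 weeks Slit1, a guidance ligand, was the most increased, with 129, 129 and 81.2 reads in Tg197 and 59.6, 41.0 and 70.8 in WT (limma log2 0.98 ± 0.25, SE, adjusted p = 0.0045). Ankrd49, Erv3 and Hdac8 fell most, and Erv3 is an endogenous retrovirus gene with related copies, where reads can be shared between copies. At 3 weeks Gdf6, a BMP family ligand, rose most upstream, with 107, 143 and 166 against 71.4, 84.9 and 89.9 (limma adjusted p = 0.0143), and Me1, malic enzyme, had the most negative log2 ratio of the authors among named genes there, with 100.2, 62.0 and 58.4 against 137, 171 and 156. Downstream at 3 weeks B630019K06Rik, Stau2 and Slc35f1 rose most, by 0.76 ± 0.19, 0.72 ± 0.24 and 0.87 ± 0.27 (SE, limma adjusted p = 0.0143, 0.0166 and 0.015). Slc17a1, Aspscr1 and Srcrb4d fell most.

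With TNF the largest increases were downstream of Ch25h, Ifi204 and Casp4. Ch25h, which makes 25-hydroxycholesterol, had 534, 655 and 604 treated against 376, 348 and 243 untreated reads (chr19:34547601-34550000), a fold of 1.85 (limma log2 0.91 ± 0.18, SE, adjusted p = 0.046). Casp4, an inflammatory caspase, had 203, 219 and 247 against 124, 151 and 114, a fold of 1.72 (limma adjusted p = 0.046). Ifi204 belongs to a family of similar genes, so reads can be shared between members, and its change was 0.92 ± 0.34 (SE, limma adjusted p = 0.0482, and 0.0555 by TSS-near regions). Groups were apart for all 3.

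The largest decreases with TNF were upstream at Kirrel2 and Sec14l3, with an authors' log2 ratio of −1.72 and −1.54, followed downstream by Sectm1a (−1.44) and 4933422H20Rik (−1.40). Wbscr16 (−1.36) was the third upstream and Ptpn6 (−1.34), which encodes the phosphatase SHP-1, the third downstream, and limma passed all 6. With scaling to all listed regions Sectm1a and Wbscr16 did not pass (limma adjusted p = 0.0681 and 0.0779). Ptpn6 had 136, 55.6 and 63.3 treated against 302.0, 191 and 153 untreated reads, without overlap. Kirrel2 had 85.0, 26.2 and 40.7 treated against 208, 193 and 101 untreated reads (limma log2 −1.81 ± 0.58, SE, adjusted p = 0.046), with WT library c the lowest control. Spry2, which encodes an inhibitor of receptor tyrosine kinase signalling, was among the 3 most increased upstream regions, with 237, 236 and 251 against 149, 120 and 221 (limma log2 0.61 ± 0.22, adjusted p = 0.0481, and 0.0714 by TSS-near regions). At 8 weeks, where limma called nothing, the largest values were downstream of Tnip1, Ddx60 and Tollip on the higher side. On the lower side they were downstream of Rnu1b2, Myo1g and 2310050B05Rik and upstream of Plekhg4, Avp and Gm15698. Rnu1b2 is a small nuclear RNA gene with near-identical copies, and its value is uncertain for that reason.

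Few genes recurred between ages. On the downstream side 19 genes had a region at both 3 and 8 weeks, which is 2.95% of the genes at 3 weeks and 5.90% of those at 8 weeks, with 13 having higher means at both ages, 2 lower at both and 4 opposite. Between 3 and 11 weeks 24 downstream genes were shared (3.73% and 5.11%), 15 of them with higher means and 4 with lower means at both, and between 8 and 11 weeks 10 (3.11% and 2.13%). On the upstream side 10, 6 and 7 genes were shared in these 3 pairs. Genes higher downstream at both 3 and 8 weeks included Nfkbie, Pdpn, Lrig1 and Sema7a, and those at both 3 and 11 weeks Icam1, H2-K1, Aldh1a2 and Npy1r. Whether this exceeds what lists of these lengths share by position alone was not tested.

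Some genes with a region of this class had other listed regions as well. Of the 516 genes with a higher downstream region at 3 weeks, 109 had gene-body regions that were all lower, 3 had only higher ones and 2 had both, while 99.1% of all called gene-body regions of that list were lower. For regions 1 to 3 kb from the TSS the counts were 37 with only lower and 4 with only higher ones. At 11 weeks, of 284 such genes 22 had only lower and 14 only higher gene-body regions, and 4 had both, with 74.9% of called gene-body regions lower. At 8 weeks 11 of 213 genes had only lower and 1 only higher ones (95.3% lower in all), and with TNF 6 of 325 and 0 (97.0%). Reads higher next to the TSS and lower further into the gene were thus seen in 109 of 516 genes at 3 weeks and in fewer in the other lists, and the lower direction was that of gene-body regions at large.

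A second gene starting head to head within 1 kb was looked for in RefSeq, by neighbourhood on GRCm38.p6. At 3 weeks 22.5% of higher and 16.5% of lower downstream regions belonged to genes with such a neighbour, and 19.6% of higher (18 of 92) against 6.64% of lower upstream regions (14 of 211). At 8 weeks the upstream shares were 13.3% and 14.2%, at 11 weeks 6.94% and 7.56%, and with TNF 14.7% and 8.89%. The larger share among higher upstream regions was thus seen at 3 weeks and with TNF, from 18 and 5 regions, and not at 8 or 11 weeks. These shares were not tested.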

How the data were processed

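The data were 4 deposited tables of regions on the build mm9. Per the file headers each region carries the authors' normalized reads of 3 treated and 3 control libraries, whose deposited averages are the signal, an enrichment ratio over input, a log2 ratio, a p-value with its adjusted p-value, and a score for the distance from the TSS. Neither the scaling of the enrichment nor the region caller is stated in these sources. The submitters' processing notes name BWA, TopHat, TopHat2, Cufflinks and Cuffdiff with mm9, without versions or roles. Control was read as WT because the controls of both 8 week tables were equal in 162 of 162 values of 54 identical regions, and WT of 8 weeks is the group that the labels tie to both. For 3 and 11 weeks the same reading was assumed and not checked, so directions there rest on it. Values carry no replicate number, so the letters a, b and c name libraries in the order in which a cell lists them.

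Within 0.02 normalized reads, all values (100.0%) were multiples of 1 step specific to their library, which gave back whole reads. limma 3.58.1 in R 4.3.3 was fitted, with a trend in the variance, on log2 of the normalized value plus 0.5 for all listed regions of a comparison, with Benjamini-Hochberg adjustment, and was tested on simulated data. The tables held normalized reads with the authors' own test in place of the raw counts that had been foreseen. Medians, shares and quotients are descriptions with no test. Alternatives were rescaled libraries, voom on recovered reads, a pseudocount of 5, a mean of at least 20, regions off the TSS, 1 region per gene and side, the authors' adjusted p of 0.001, and each library left out. The direction by enrichment was added after seeing the data. The list of leukocyte markers is not reported here. The regions and the gene lists were chosen with earlier results of these data known. Named genes are the 3 largest changes in each direction per comparison and side (libraries apart, mean of at least 50), genes of the lists, genes on 1 side at all 3 ages, and up to 6 genes per comparison with opposite sides.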

Additional observations from a re-analysis of the deposited data

Results flagged for a closer look

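For 15 genes the libraries of Tg197 and WT did not overlap at 2 ages, on the same side of the TSS, and the direction was opposite. The age pairs (3 and 8, 3 and 11, 8 and 11 weeks) shared 19, 24 and 10 downstream and 10, 6 and 7 upstream genes. Of these, 4, 5 and 4 downstream and 2, 4 and 2 upstream were opposite. Libraries apart were common: 6.29%, 16.9% and 28.8% of all listed regions lay above and 86.4%, 46.3% and 67.1% below at 3, 8 and 11 weeks. The values are the authors' log2 change at the earlier age minus that at the later age, and the difference between ages was not tested. Between 3 and 8 weeks it was 1.06 for Aagab, 0.93 for Leng9 and 0.97 for Tmem44, all downstream, and −1.08 for Trim24, upstream. Between 3 and 11 weeks it was −1.16 for Rhbdf2 and 1.04 for Ssh2 downstream, and −1.07 for Cpsf1, −1.18 for Ell3, 1.03 for Metrnl and −1.02 for Vps39 upstream. Between 8 and 11 weeks it was 0.74 for Arfgap1, −1.92 for Myo1g, 0.83 for Tmem49 and 0.79 for Zbed6 downstream, and −1.56 for Lat2 upstream.

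In 14 of these genes the 2 lists place the region at different distances from a TSS. For Rhbdf2 the distances were close (981.5 and 964.5 bp), but the regions did not overlap (chr11:116486801-116487900 and chr11:116483501-116485700 on mm9). Its 2 distances were thus measured from different starts. Trim24 was lower with its centre 709.5 bp before the TSS at 3 weeks and had a higher mean 309.5 bp before it at 8 weeks. Vps39, a gene of endosome fusion, had the same coordinates at both ages (chr2:120179001-120180000 on mm9). Its mean was 108 ± 8.58 normalized reads in Tg197 and 161 ± 34.5 in WT at 3 weeks (SD, n = 3), and 142 ± 6.63 and 104 ± 11.4 at 11 weeks. limma gave −0.55 ± 0.20 (SE, adjusted p = 0.0209) and 0.45 ± 0.14 (adjusted p = 0.0081). With each library scaled to all listed regions the value of Vps39 at 3 weeks was 0.12, with no opposite sign left. Under that scaling 10 of the 15 genes had the same sign at both ages, and only Ssh2, Ell3, Metrnl, Myo1g and Lat2 kept opposite signs, while by TSS-near regions all 15 did.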

How the results depend on the processing

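The difference between the median changes of the sides kept its sign with a pseudocount of 5, a mean of at least 20, regions off the TSS, 1 region per gene and side, and each library left out. Library scaling cannot change it, and it was not computed with voom, the authors' adjusted p of 0.001 or the enrichment. With 1 library left out it was 0.724 to 1.075 at 3 weeks, 0.866 to 1.222 at 8 weeks, 0.708 to 0.786 at 11 weeks and 0.723 to 1.029 with TNF. The limma calls with 1 library left out numbered 0 to 897 at 3 weeks, 0 to 354 at 8 weeks, 543 to 568 at 11 weeks and 0 to 717 with TNF. Without regions that span the TSS, fewer regions were tested, and limma called 308 at 3 weeks, 296 at 11 weeks and 189 with TNF. The authors' higher share then was 72.727% and 13.665% (downstream and upstream) at 3 weeks, 59.13% and 28.261% at 11 weeks, and 58.621% and 7.207% with TNF. At the authors' adjusted p of 0.001 it was 59.307% and 6.349% with TNF.

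Scaling each library to all listed regions gave 394 rising and 0 falling regions at 3 weeks, in place of 270 and 317. It gave 396 and 17 at 11 weeks (336 and 257 as deposited), 366 and 7 with TNF (230 and 179), and 124 calls at 8 weeks (122 rising). Scaling by the TSS-near regions (1 kb or closer) gave 327 calls at 3 weeks, all falling, 170 at 8 weeks (168 falling), 198 rising and 278 falling at 11 weeks, and 87 and 351 with TNF. voom gave 181 and 218 with TNF. Directions by enrichment gave a higher share of 41.447% upstream at 3 weeks, 83.389% and 48.795% (downstream and upstream) at 8 weeks, and 97.541% and 96.393% with TNF. The causes were not tested. No paired analysis was possible because the 3 values of a group carry no replicate number.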
